A study of Mus musculus with 2 samples.

Results

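Cornifying keratinocytes were followed here in a culture of mouse epidermal cells, as the cells with the most RNA of small proline-rich and cornified envelope genes. Cells with at least 1000 CPM of Krt14, a keratin of the basal epidermal layer, were taken from 2 single-cell RNA libraries (CPM is the UMIs of a gene, scaled to 1000000 UMIs of the cell, and a UMI, or unique molecular identifier, marks 1 captured RNA molecule). Each of these Krt14 cells was given a score, the mean of log2(CPM + 10) of Sprr1a, Sprr2d, Sprr2h, Cnfn, Ly6d and Psca, and the 15% of them with the highest score were the members. This gave 459 members of 3062 Krt14 cells, out of 3686 cells in all. The library labelled knockout held 141 members and the library labelled wild type 318.

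Keratinocytes leave the basal layer, stop dividing and end as flattened dead cells, the cornified cells of the skin surface. During this process transglutaminases cross-link precursor proteins, among them involucrin, loricrin and the small proline-rich (SPRR) proteins, into a cornified envelope beneath the membrane. Keratins 6, 16 and 17 are keratins of wounded and cultured epidermis, and SPRR proteins are abundant in stressed epidermis and in the lining of the mouth and oesophagus. Sprr1a, Sprr2d and Sprr2h encode SPRR proteins. Cnfn encodes cornifelin, a component of the envelope, Ly6d a surface protein of the LY6 family made by squamous cells, and Psca (prostate stem cell antigen) another LY6 protein found on several epithelia.

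The epidermal cells came from C57BL/6 pups at postnatal day 1, pooled by genotype. The first pool, labelled BAP1 KO, came from 9 neonates that carried floxed Bap1 alleles (Bap1fl/fl) and Rosa26-CreERT2, a recombinase active only in the presence of tamoxifen and expressed from a locus that is on in most cell types, not in keratinocytes alone. The second, labelled BAP1 WT, came from 11 neonates with Rosa26-CreERT2 alone. Bap1 encodes a nuclear deubiquitinase of histone H2A. Both cultures, in medium M254 with a growth supplement made for human melanocytes, were given 100 nM 4-hydroxytamoxifen (4-OHT) for 4 days and were collected 3 days after its removal, so both groups carried the recombinase and received the drug. They are called the KO library and the WT library here, after their labels.

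The KO library held 1760 cells and 64954113 UMIs, and the WT library 1926 cells and 77579465 UMIs, with medians of 33585 and 37223 UMIs per cell. Bap1 RNA was not lower in the KO library. Its members had 17.0 CPM (96 UMIs), against 13.3 CPM (174 UMIs) in the WT members, a log2 ratio of 0.36 (95% interval −0.02 to 0.73). Tags came from the 3′ end of transcripts, and one outside the deleted exons checks nothing, so all directions between the libraries rest on the labels. Each genotype had 1 library. There was therefore no spread between replicates and no test, and every interval covers counting error only. KO members had a median of 38527 UMIs and 5813 detected genes, against 37514 and 6100 in WT members. Among the other Krt14 cells the medians were 37095 UMIs and 6203 genes in the KO library, against 40368.5 and 6499 in the WT library. Cells with over 2 times their library's median UMIs, which can be doublets, were 8.51% of the KO members and 8.18% of the WT members, against 10.7% and 9.25% of the other Krt14 cells. In all, 3 cell barcodes occurred in both libraries, and 0 of them belonged to members.

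The start regions of the score genes are shown because all 3 Sprr genes held the same motifs, at differing distances from the start. Cnfn, which was high in the same group of cells, did not hold them in the exact letters searched. RefSeq (GRCm38.p6) gave a window for 4 of the 6 genes, on the strand of the gene. Each sequence below is the 250 bases before the annotated start, 5′ to 3′. Capitals mark the letters TGANTCA (the site of AP-1 factors) and the letters TATAAA (the core of the box bound by TATA-binding protein).
Sprr1a at chr3:92485882-92486131, minus strand: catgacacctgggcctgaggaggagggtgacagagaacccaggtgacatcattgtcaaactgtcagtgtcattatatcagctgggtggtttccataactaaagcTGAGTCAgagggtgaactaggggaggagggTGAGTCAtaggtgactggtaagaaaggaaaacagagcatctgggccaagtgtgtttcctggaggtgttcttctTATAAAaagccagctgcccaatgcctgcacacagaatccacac
Sprr2d at chr3:92338890-92339139, plus strand: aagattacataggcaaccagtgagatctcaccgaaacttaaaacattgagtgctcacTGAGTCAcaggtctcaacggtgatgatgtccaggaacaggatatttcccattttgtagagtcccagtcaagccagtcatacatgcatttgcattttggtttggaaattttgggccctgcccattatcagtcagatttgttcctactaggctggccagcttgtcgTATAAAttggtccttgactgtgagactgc
Sprr2h at chr3:92385435-92385684, plus strand: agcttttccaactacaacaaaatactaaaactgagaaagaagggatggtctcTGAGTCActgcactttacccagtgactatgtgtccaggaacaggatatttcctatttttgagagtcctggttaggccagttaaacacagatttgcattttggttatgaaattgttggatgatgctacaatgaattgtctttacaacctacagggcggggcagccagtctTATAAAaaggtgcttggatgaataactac
Cnfn at chr7:25369725-25369974, minus strand: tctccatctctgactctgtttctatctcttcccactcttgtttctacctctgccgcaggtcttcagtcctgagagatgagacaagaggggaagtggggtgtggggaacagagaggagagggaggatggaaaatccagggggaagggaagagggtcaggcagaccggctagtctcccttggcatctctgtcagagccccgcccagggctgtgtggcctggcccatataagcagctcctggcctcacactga
In Sprr1a the AP-1 motif began at −146 and −116 and TATAAA at −43 relative to the start. Sprr2d had the AP-1 motif at −193 and TATAAA at −29. Sprr2h, in the same gene cluster, had them at −198 and −29. The Cnfn window held neither motif in these exact letters. Its sequence has the similar letters tataag near the end, which the search did not count. Both strands were searched over 250 bases before to 50 after the start, and of 32817 such RefSeq windows, 7.81% held TGANTCA and 13.6% held TATAAA, which sets the background for a chance match. Of the 2 other motifs searched, CACCC (KLF factors) was found 4 times for Sprr1a, where 1 match overlaps the AP-1 motif at −116, and 1 time for Cnfn, and is present in 57.5% of windows, and GGAAG (ETS factors) was found 4 times for Cnfn and is present in 71.4% of windows. A motif match describes the letters and is not a binding site. The 3 Sprr genes lie within the epidermal differentiation complex on chromosome 3 (Sprr2d at 92339140 to 92340873, Sprr2h at 92385685 to 92387324, Sprr1a at 92483954 to 92485881). Cnfn lies on chromosome 7 at 25367616 to 25369724, Ly6d on chromosome 15 at 74762056 to 74763567 and Psca on chromosome 15 at 74714839 to 74717065, all without an overlapping annotated gene. The 3′ tags of near-identical Sprr2 copies cannot always be told apart, so single Sprr2 values are uncertain.

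The score had no gap at the cut of 4.871. Members just inside it scored 4.871 and 4.872 and cells just outside 4.870 and 4.869. Within 0.25 of the cut lay 24 members and 35 other cells of the KO library, and 73 members and 143 other cells of the WT library. Members therefore are the upper end of a range without a break at the cut. Scores near the cut cannot show whether a separate group of cells lies further up. They were 10.4% of the Krt14 cells in the KO library (exact Clopper-Pearson interval 8.80 to 12.1%) and 18.7% (16.9 to 20.6%) in the WT library. Because the score genes chose the members over both libraries, these shares describe the score. They came closer together, at 13.5% in the KO library and 16.1% in the WT library, when each cell was first thinned to 8000 UMIs, and further apart, at 6.10% and 22.1%, when Sprr1a was left out of the score.

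**Figure D1:**
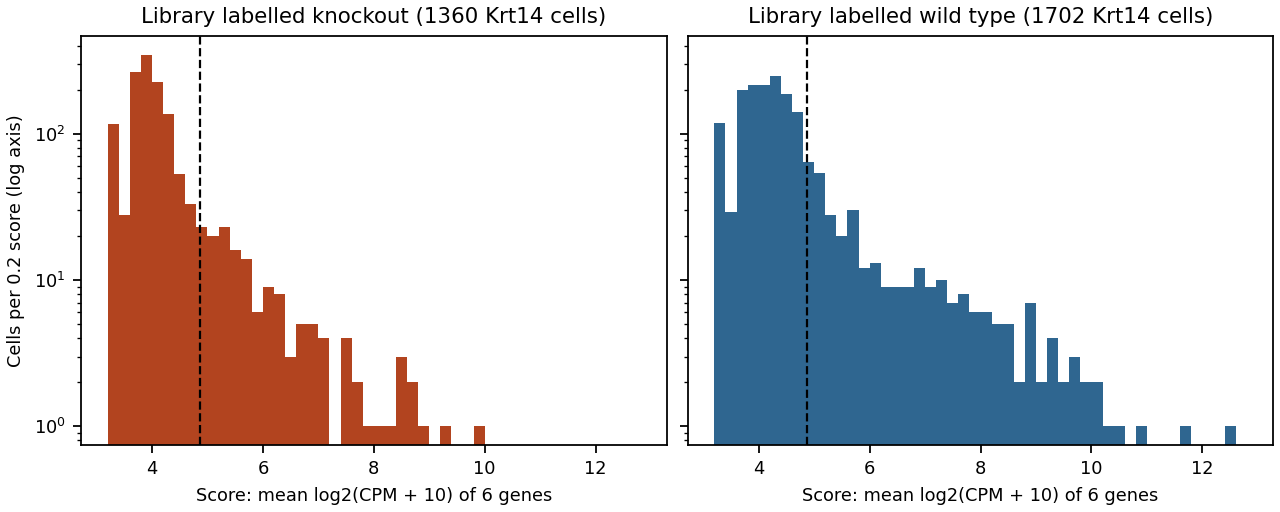
Number of Krt14 cells (log axis) per 0.2 units of the score, the mean log2(CPM + 10) of 6 genes, for the KO library on the left (1360 cells) and the WT library on the right (1702 cells). The dashed line is the cut of 4.871: there is no gap at it, and the highest score was 9.90 in the KO library and 12.48 in the WT library.

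Members of the KO library were mostly Sprr1a cells, while the WT members were spread over all 6 score genes. Over summed cells Sprr1a stood at 8947 CPM in KO members and 91.3 CPM in the other KO Krt14 cells, and at 1236 CPM in WT members and 27.5 CPM in the other WT Krt14 cells. Per cell it reached from 0 to 45660 CPM in KO members with a median of 3267 CPM, and from 0 to 29274 CPM in WT members with a median of 93.0 CPM. The ranges overlap fully, but the median KO member had far more Sprr1a than the median WT member. Sprr2d was the reverse, with 457 CPM in KO members (2.55 CPM in the other cells) and 1577 CPM in WT members (18.1 CPM). Its median was 0 CPM in KO members, with a highest cell of 25730 CPM, and 36.7 CPM in WT members, with a highest cell of 50680 CPM. Only 40 of 141 KO members had any Sprr2d UMI, against 234 of 318 WT members.

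The other 3 genes with a lower level in KO members behaved like Sprr2d. Sprr2h stood at 352 CPM in KO members and 749.6 CPM in WT members, Cnfn at 420.0 and 874 CPM, and Psca at 382 and 984 CPM. Their medians per cell were 0 CPM in KO members for all 3, and 49.0, 23.1 and 36.8 CPM in WT members for Sprr2h, Cnfn and Psca, with highest cells of 19379, 16659 and 18458 CPM in KO members and 31880, 63491 and 46040 CPM in WT members. Ly6d was alike in both libraries, at 680.0 CPM in KO members and 696 CPM in WT members. Its median was 19.9 CPM in KO members, with a highest cell of 18031 CPM, and 22.9 CPM in WT members, with a highest cell of 14906 CPM. As log2 ratios of KO over WT members these were 2.86 for Sprr1a (2.83 to 2.88), −1.79 for Sprr2d (−1.85 to −1.73), −1.09 for Sprr2h (−1.16 to −1.02), −1.06 for Cnfn (−1.12 to −0.99), −1.37 for Psca (−1.43 to −1.30) and −0.03 for Ly6d (−0.09 to 0.02). In the other Krt14 cells, which lie below a cut on the same score so that their values too are only a description, the log2 ratios were 1.73 for Sprr1a, −2.83 for Sprr2d, −1.41 for Sprr2h, −2.07 for Cnfn, −1.85 for Psca and 0.06 for Ly6d. Since the same genes chose the members, other cuts moved the members' ratios: over all settings tried they spanned 2.01 to 3.17 for Sprr1a, −2.80 to −0.73 for Sprr2d, −1.92 to −0.06 for Sprr2h, −1.93 to 0.01 for Cnfn, −2.24 to −0.30 for Psca and −0.78 to 1.08 for Ly6d.

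**Figure D2:**
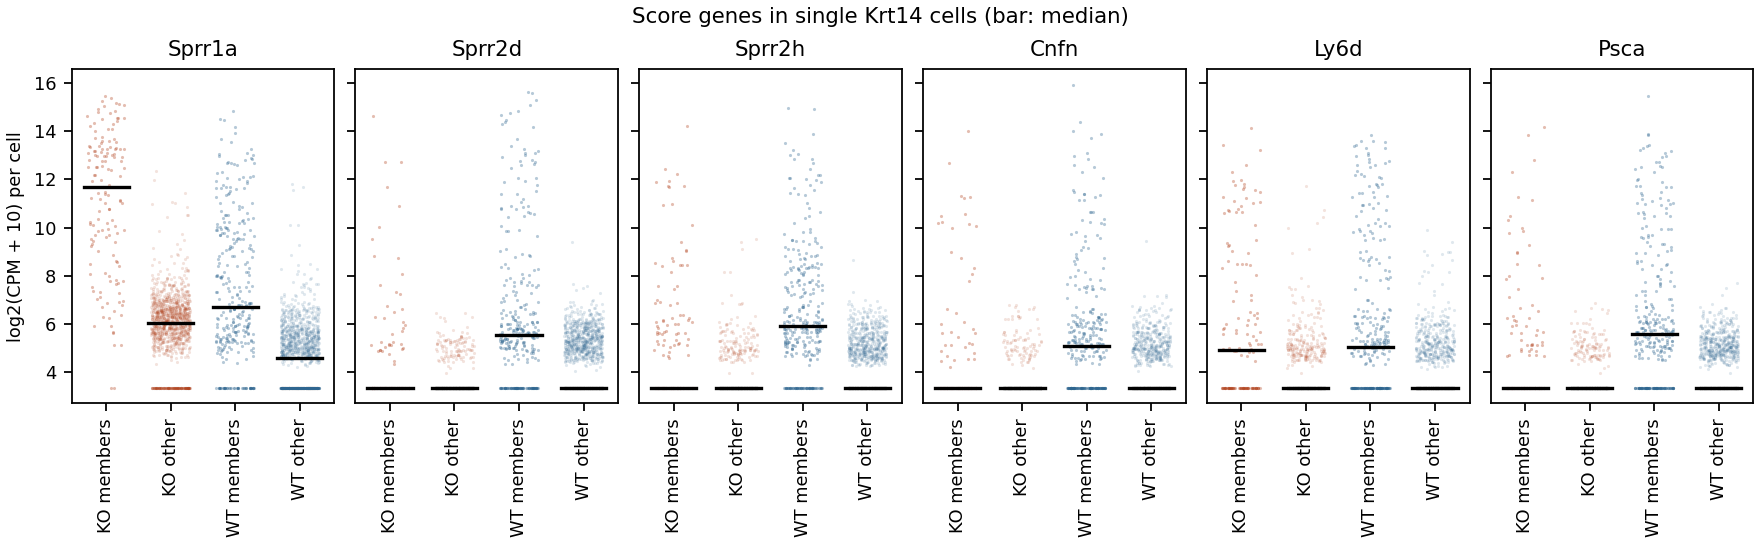
Each panel shows 1 score gene and each point 1 Krt14 cell, as log2(CPM + 10), with a bar at the median. Columns are members and other cells of the KO library (red) and members and other cells of the WT library (blue). Sprr1a has its highest median, 3267 CPM, in KO members, and the medians of Sprr2d, Sprr2h, Cnfn and Psca are at 0 CPM in KO members.

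Single cells carried much of these sums. In the KO library 1 member held 52.5% of the members' Sprr2d UMIs, and with each library's top cell left out the ratio of KO over WT members was −2.65 (log2). For Sprr2h, Cnfn and Psca the top KO member held 37.5%, 37.9% and 19.1% of the KO members' UMIs. The top WT member held 26.2%, 33.0% and 27.3% of the WT members' UMIs. Without these top cells the 3 ratios were −1.33, −1.17 and −1.21. The member with the highest score in the WT library (12.48) held 98.7% of the Lce3a UMIs, 89.4% of the Lce3f UMIs and 80.1% of the Sprr2e UMIs of the WT members. Lce3a and Lce3f are late cornified envelope genes. KO members had 1 Lce3a UMI and 0 Lce3f UMIs. With each library's top cell left out the KO over WT ratio of Sprr2e was −2.24, against −4.14 with it, and that of Lce3a −1.59, against −9.45. For Lce3a this left 0 UMIs in KO members, so −1.59 is set by the floor of 3 UMIs and is not a measured ratio. A single KO member likewise held 96.4% of the Lce1m UMIs. Sprr1a was spread more evenly, with at most 7.22% of its UMIs in 1 KO member and 12.2% in 1 WT member.

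The number of score genes a member was high for differed between the libraries. Taking 500 CPM as high, 86 KO members were high for exactly 1 of the 6 genes, 27 for 2, 12 (8.51%) for 3 or more and 16 (11.3%) for none. Of the WT members 104 were high for 1 gene, 48 for 2, 45 (14.2%) for 3 or more and 121 (38.1%) for none. Sprr1a was the leading gene of 100 KO members (70.9%), followed by Ly6d with 23 (16.3%). Among WT members Sprr1a led in 117 (36.8%), Sprr2d in 63 (19.8%), Ly6d in 57 (17.9%) and Sprr2h in 38 (11.9%). Across cells the score genes were weakly related, with Pearson r of log2(CPM + 10) between −0.36 (Sprr1a with Ly6d) and 0.33 (Cnfn with Psca) over 141 KO members, and between −0.16 (Sprr1a with Ly6d) and 0.37 (Sprr2h with Cnfn) over 318 WT members. These values are a description of cells that share a library and were chosen on the sum of the genes. Of the 62 Psca-high WT members, 30 (48.4%) were also Sprr1a-high and 20 were Cnfn-high, whereas of the 60 Ly6d-high WT members 14 (23.3%) were Sprr1a-high.

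Counted over all Krt14 cells without the score, cells high for at least 1 of the genes were about as frequent in both libraries. They were 150 of 1360 (11.0%, 9.41 to 12.8%) in the KO library and 209 of 1702 (12.3%, 10.8 to 13.9%) in the WT library, and the intervals overlap. Sprr1a-high cells were 8.90% (7.44 to 10.5%) of KO and 6.23% (5.13 to 7.48%) of WT Krt14 cells. Sprr2d-high cells were 0.515% (0.207 to 1.06%) and 3.17% (2.39 to 4.12%), and Psca-high cells 0.882% (0.457 to 1.54%) and 3.64% (2.80 to 4.65%). Cells high for 3 or more genes were 0.882% (0.457 to 1.54%) and 2.64% (1.93 to 3.52%).

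Low levels of score gene RNA were also present outside keratinocytes. In cells with under 1000 CPM of Krt14 and at least 2000 CPM of the myeloid genes Lyz2, Fcer1g and Tyrobp together, which should make no SPRR protein, 13 of 20 KO cells had a Sprr1a UMI and 0 of 20 a Sprr2d UMI, which by a floor of 3 cells allows a share of cells with a UMI of up to 15%. In the WT library 12 of 36 such cells had a Sprr1a UMI and 15 of 36 a Sprr2d UMI. After thinning every cell to 8000 UMIs, Sprr1a was found in 92.9% of KO members (87.3 to 96.5%), 40.9% of the other KO Krt14 cells and 50% of the KO myeloid-like cells. In the WT library the thinned Sprr1a shares were 60.1% (54.4 to 65.5%), 16.3% and 16.7%, and the thinned Sprr2d shares 35.5% (30.3 to 41.1%), 13.7% and 11.1%. Without thinning, Sprr1a was found in 98.6%, 84.7% and 65.0% of the KO groups and in 86.2%, 53.0% and 33.3% of the WT groups, and Sprr2d in 73.6%, 48.6% and 41.7% of the WT groups. The myeloid-like cells had median depths of 16120 UMIs in the KO library and 19443.5 in the WT library. With so few myeloid-like cells the intervals of their thinned shares were wide. They were 27.2 to 72.8% for Sprr1a in the KO library, and 6.37 to 32.8% for Sprr1a and 3.11 to 26.1% for Sprr2d in the WT library. Thinned shares of the other Krt14 cells lay within these background intervals, and those of the members above them. Members whose score genes all had 5 UMIs or fewer numbered 9 (6.38%) in the KO library and 78 (24.5%) in the WT library, and how far free RNA raised them over the cut was not tested.

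Split by score, the members formed a lower band (the 85th to 90th percentile of all Krt14 cells), a middle band (90th to 95th) and an upper band (95th and over). KO members numbered 43, 63 and 35 in these bands, and WT members 110, 90 and 118. Cells without a high score gene were 12 of 43 in the lower KO band, against 94 of 110 in the lower WT band. The bands matter for the comparison of the libraries, because the lower WT band was least like the rest. Sprr1a stood at 5446 CPM in the lower KO band against 135 CPM in the lower WT band, and at 12035 CPM in the upper KO band against 2708 CPM in the upper WT band.

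The label of a cornifying keratinocyte held for some defining genes and not for others. Of the granular and cornified layer markers, Ivl (involucrin) was at 724 CPM in KO members and 20.9 CPM in the other KO Krt14 cells, and at 248 and 17.0 CPM in the WT library. Lor (loricrin) reached 31.2 and 6.90 CPM in the KO library and 20.6 and 4.69 CPM in the WT library. Casp14, a protease of terminal differentiation, had 14.9 and 7.34 CPM in the KO library and 12.1 and 6.94 CPM in the WT library. The genes of the last stages were at or near 0: Flg (profilaggrin) had 1 UMI in KO members and 0 in WT members, Tgm3 (a transglutaminase of the granular layer) 0 and 1, and Hrnr (hornerin) 0 and 0. Of the spinous layer markers, Krt1 had 6 UMIs in KO members and 11 in WT members, Dsc1 1 and 1, and Dsg1a 11 and 0. Krt10, the partner of Krt1, differed little between members and other cells, with log2 ratios of 0.01 (−0.23 to 0.25) in the KO library and 0.37 (0.22 to 0.51) in the WT library. Sbsn, also a spinous marker, went the other way. It was over 2-fold higher in members in both libraries and is given below with the envelope proteins. Krtdap, of the same marker list, is given below for KO against WT members only. Krt14 and Krt5, the basal keratin pair, were higher in members. Krt5 stood at 1671 CPM against 546 CPM in the other KO cells, and at 1601 CPM against 966 CPM in the other WT cells. The members therefore carried SPRR, involucrin and basal and wound keratin RNA, with almost none of Krt1 or Flg.

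Of 11474 genes with at least 100 UMIs in each library, 324 (2.82%) were at least 2-fold higher in members than in the other Krt14 cells in both libraries and 367 (3.2%) at least 2-fold lower. In the KO library alone 684 (5.96%) were higher and 1318 (11.5%) lower, and in the WT library alone 364 (3.17%) and 434 (3.78%). The score genes and Krt14 were left out of these counts. As the rule chose members by RNA of the same cells, the counts describe what accompanied the score, with no test. The median log2 ratio of all genes was −0.21 in the KO library and −0.14 in the WT library, so ratios below 0 were common. With ratios centred on these medians 411 genes were higher and 238 lower.

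**Figure D3:**
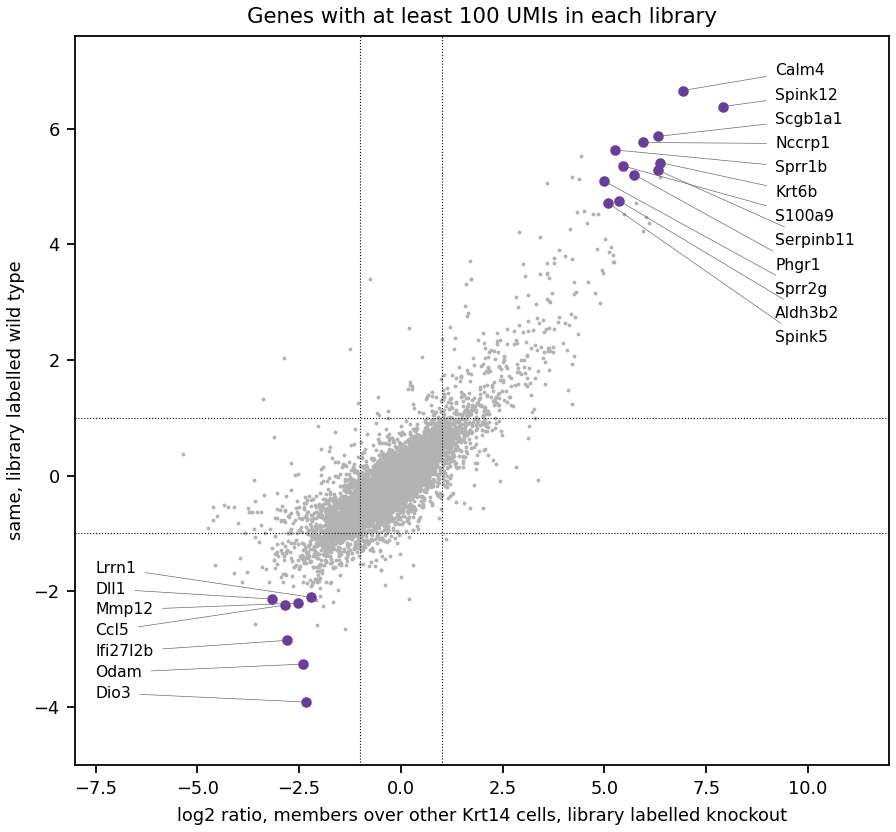
Each point is 1 of 11474 genes with at least 100 UMIs in each library, by its log2 ratio of members over other Krt14 cells in the KO library (x axis) and the WT library (y axis), with dotted lines at 2-fold. Genes chosen by the larger ratios in both libraries are labelled, in purple, and Calm4 lies highest with log2 ratios of 6.92 in the KO library and 6.66 in the WT library.

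The genes with the largest ratios in both libraries included protease inhibitors, a wound keratin, an S100 protein and Sprr genes. Spink12, an inhibitor of serine proteases, had 295 CPM in KO members and 1.22 CPM in the other KO cells, and 157 and 1.89 CPM in the WT library. Spink5, the inhibitor of epidermal kallikreins that is lost in Netherton syndrome, had 122 and 3.55 CPM in the KO library and 70.3 and 2.68 CPM in the WT library. Scgb1a1, a secretoglobin known from airway cells, had 605 and 7.65 CPM in the KO library and 384 and 6.58 CPM in the WT library. Krt6b, a wound keratin, had 278 and 3.37 CPM in the KO library and 89.1 and 2.09 CPM in the WT library. S100a9, a subunit of calprotectin, had 172 and 3.92 CPM in the KO library and 178 and 4.36 CPM in the WT library. Sprr1b had 107 and 2.82 CPM in the KO library and 97.9 and 1.98 CPM in the WT library. The remaining genes of this group were Calm4 (a calmodulin-like protein of the epidermis), Nccrp1, Serpinb11, Phgr1, Sprr2g and Aldh3b2, with log2 ratios of 4.98 to 6.92 in the KO library and 4.75 to 6.66 in the WT library. Several rested on few cells: 1 WT member held 75.6% of the Calm4 UMIs, 1 KO member 68.6% of the Nccrp1 UMIs and 1 KO member 67.8% of the Sprr2g UMIs. Without the top cell of each group the 3 genes still had log2 ratios of 4.04 to 6.16 in the KO library and 4.19 to 5.06 in the WT library. Aldh3b2 overlaps Aldh3b3.

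Lists of genes of the cornified envelope were higher as groups. All 7 other Sprr genes that could be compared were over 2-fold higher in both libraries, with a median log2 ratio of 4.72 in the KO library and 4.52 in the WT library. Sprr2a3 was the most abundant of them, with 1424 CPM in KO members (54.2 CPM in the other cells) and 1012 CPM in WT members (44.1 CPM). Of 12 cornified envelope proteins compared 9 were higher and 0 lower. Scel (sciellin) had log2 ratios of 4.96 in the KO library and 3.50 in the WT library, Evpl (envoplakin) 2.95 and 1.75, Dmkn (dermokine) 4.21 and 1.94 and Sbsn (suprabasin) 3.99 and 2.30. The late cornified envelope genes did not follow. Of 9 compared only Lce1b and Lce6a were higher and Lce1g was lower, at 44.4 CPM in KO members and 294 CPM in the other KO cells, and at 80.1 and 200.1 CPM in the WT library. Of 8 transglutaminases and cornification enzymes, Tgm1 (log2 3.02 and 1.87), the protease gene Asprv1 (4.37 and 5.13) and the sulfotransferase gene Sult2b1 (2.05 and 1.77) were higher in both libraries.

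Several genes of proteases, their inhibitors and antimicrobial proteins were also higher. Of 15 compared kallikreins, proteases and inhibitors 8 were higher and 0 lower. Klk6 had 760 CPM in KO members and 31.2 CPM in the other KO cells, and 448 and 43.9 CPM in the WT library. Klk7, a kallikrein that cleaves corneodesmosomes, had 433 and 26.5 CPM in the KO library and 278 and 19.97 CPM in the WT library. Cst6, the inhibitor cystatin M/E, had 2181 and 58.6 CPM in the KO library, where 1 member held 64.5% of its UMIs, and 453 and 32.3 CPM in the WT library. Of 10 antimicrobial genes 7 were higher and 0 lower, among them the defensin gene Defb14 (647 and 17.2 CPM in the KO library, 183 and 14.1 CPM in the WT library) and Slpi, an inhibitor of leukocyte elastase (1427 and 116 CPM in the KO library, 666 and 150.0 CPM in the WT library). Of 14 S100 genes 7 were higher. Of 4 wound keratins 3 were higher, with Krt16 at 581 CPM in KO members and 46.7 CPM in the other KO cells, and at 344 and 42.7 CPM in the WT library. Krt17 was abundant in every group and differed less, at 23076 and 16736 CPM in the KO library and 21206 and 17353 CPM in the WT library. Of 5 keratins of simple epithelia only Krt19 was higher, at 992 and 115 CPM in the KO library and 779 and 89.6 CPM in the WT library.

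Among 23 transcription factors of differentiation 7 were higher and 0 lower. The homeodomain protein gene Hopx had the largest ratios, 5.15 in the KO library and 3.95 in the WT library, from 62.5 and 34.1 CPM in members. Grhl1, a grainyhead factor, had 3.64 and 2.56, and Elf3, an ETS factor of epithelia, 3.35 and 2.73. Vdr (the vitamin D receptor), Prdm1, Barx2 and Zfp750 completed the group. Grhl3, a grainyhead factor needed for the skin barrier, had ratios of 1.44 and 0.94 and Klf4, a zinc finger factor of barrier formation, 0.88 and 0.47, so neither passed 2-fold in both libraries. Of 10 Notch pathway genes compared 2 were higher and 3 lower. Nrarp, a Notch target, had ratios of 3.48 and 2.69 and the receptor gene Notch3 1.23 and 1.00, and the lower genes were the ligand genes Dll1 (−3.17 and −2.13), Jag1 (−1.41 and −1.27) and Jag2 (−1.83 and −1.48). None of the 10 AP-1 factors compared passed 2-fold in both libraries, which is near the share over all genes (2.82% higher and 3.2% lower). Of the EGF receptor ligands, Areg, Ereg and Tgfa were higher (log2 2.20, 2.14 and 2.02 in the KO library, then 2.18, 1.87 and 1.03 in the WT library) and Epgn was lower (−1.71 and −1.84).

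Genes of attachment to the basement membrane and of the contractile cytoskeleton were lower in members. Of 15 basal and hemidesmosome genes 9 were lower and 0 higher, with median log2 ratios of −1.43 in the KO library and −1.05 in the WT library. Trp63, the transcription factor p63 of basal cells, had 3.01 CPM in KO members and 15.5 CPM in the other KO cells, and 12.6 and 29.6 CPM in the WT library. The integrin gene Itgb4, of the hemidesmosome, had 55.6 and 149.5 CPM in the KO library and 63.5 and 134 CPM in the WT library. Krt5, which stands in the same list, went the other way. Of 10 contractile genes 5 were lower and 0 higher. Tagln (transgelin) had 94.0 and 1412 CPM in the KO library and 291 and 1047 CPM in the WT library, and Acta2, smooth muscle actin, 517 and 3274 CPM in the KO library and 565 and 1564 CPM in the WT library. Among the genes lowest in both libraries were Ifi27l2b, Odam, Dio3, Ccl5, Mmp12, Dll1 and Lrrn1, with log2 ratios of −3.17 to −2.20 in the KO library and −3.91 to −2.10 in the WT library. The chemokine gene Ccl5 was at 14.5 CPM in KO members and 104 CPM in the other KO cells, and 12.3 and 57.9 CPM in the WT library. Most of the others had few UMIs in members, such as 10 of Dio3 in the KO library and 2 in the WT library. Mmp12 and Odam were highest in cells under the Krt14 limit. There they had 72.7 and 77.6 CPM in the KO library, against 2.30 and 2.48 CPM in KO members. In the WT library they had 59.9 and 52.4 CPM there, against 0.686 and 0.457 CPM in members. How far free RNA set their level in the other Krt14 cells was not tested.

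The other lists ranged from no gene to most genes past 2-fold. None of 2 suprabasal keratins, 10 desmosome genes, 12 stress response genes or 16 genes of the Bap1 complexes that could be compared passed 2-fold in both libraries. Of 14 tight junction genes Cldn23 and Tjp3 were higher and Cldn6 lower, and of 11 genes of the lipid barrier Cers3 and Elovl4, both of ceramide synthesis, were higher. Of 10 genes of the Ly6 family Lypd3, Ly6g6c, Ly6g6e and Lynx1 were higher, and of 4 urothelial and mucosal genes Upk1b, Mal and Tmprss11e. Of 7 genes of the interleukin 1 family the receptor genes Il1r1, Il1r2 and Il1rl1 were lower, as was Cxcl10 among 13 interferon response genes. Among S phase genes 9 of the 30 compared were lower and 0 higher, and of 39 G2 and M phase genes only Cks1b was lower in both libraries. Over all genes 2.82% were higher and 3.2% lower, so lists with no gene or a single gene past 2-fold lie near that share.

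Krt14 was higher in each next band of the score in both libraries, while Itgb4 and the contractile genes were lower in each next WT band. Krt14 was at 10828, 15829 and 22056 CPM in the lower, middle and upper KO bands and at 6242, 11844 and 18110 CPM in the WT bands. Itgb4 was at 58.1, 53.0 and 56.5 CPM in the KO bands and at 95.5, 64.2 and 30.9 CPM in the WT bands. Summed contractile genes were at 5875, 4504 and 4522 CPM in the KO bands and at 9341, 5876 and 3872 CPM in the WT bands. For Itgb4 and the contractile genes the KO bands lay closer together than the WT bands did.

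**Figure D4:**
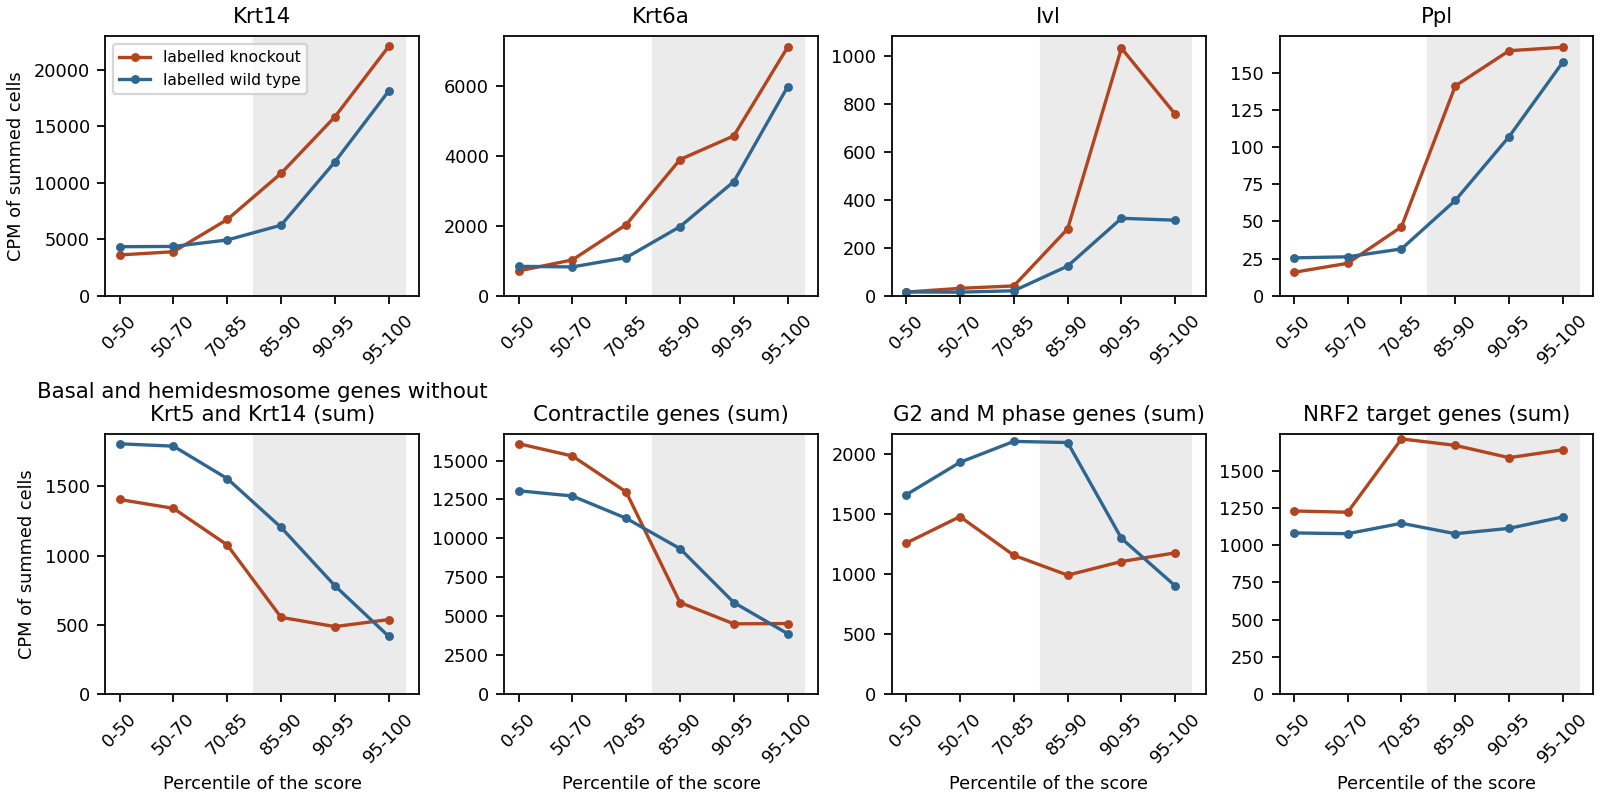
CPM of summed cells (y axis, from 0) over 6 bins of the score percentile (x axis), for 4 genes and 4 gene lists, with the KO library in red and the WT library in blue and the members' bins shaded. G2 and M phase genes sum to 991 CPM in the lower and 1177 CPM in the upper KO band, against 2098 and 901 CPM in the lower and upper WT bands.

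Markers of other cell types were low in members or close to their level in the other Krt14 cells. The 6 fibroblast markers summed to 0.354 CPM in KO members and 1.52 CPM in WT members, with Col3a1 and Lum at 0 in both. The 6 myeloid markers summed to 11.7 and 22.2 CPM, and the 4 endothelial markers to 0.708 and 1.75 CPM. Melanocyte markers, all 6 detected, summed to 309 CPM in KO members and 298 CPM in the other KO cells, and to 324 and 300 CPM in the WT library, and 2 members of each library exceeded 2000 CPM. Schwann cell markers summed to 21.1 CPM in KO members and 39.7 CPM in WT members. The Langerhans cell list, at 1334 CPM in KO members and 1590 CPM in WT members, was nearly all Epcam, which keratinocytes in culture also express, with Cd207 at 0 in every group. The Merkel cell list, at 6359 and 3424 CPM, was nearly all Krt8 and Krt18, with Atoh1 at 0 in members.  T cell markers (3 of 4 matched) summed to 1.95 and 1.22 CPM and mast cell markers to 4.96 and 2.74 CPM, with Mcpt4 and Cma1 at 0 in members.

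Within the members the libraries differed more often downward than upward. Of 9564 genes with at least 100 UMIs, 148 (1.55%) were at least 2-fold higher in KO members than in WT members and 498 (5.21%) at least 2-fold lower. In the other Krt14 cells 233 of 13049 (1.79%) were higher and 862 (6.61%) lower in the KO library. Of the genes tested in both, 138 were higher in KO members and 37 (26.8%) of them were also higher in the other KO cells, and 479 were lower in KO members and 216 (45.1%) of them were also lower in the other KO cells. Median log2 ratios over all genes were −0.05 in members and −0.01 in the other cells. The lower count moved with the cut: it was 326 with the top 15% taken in each library and 205 in the upper band alone, and the higher count was 121 in the upper band.

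The genes highest in KO over WT members included genes that differed in all Krt14 cells and genes that differed mainly in the members. F2rl2, a protease-activated receptor, had 23.4 CPM in KO members and 0.990 CPM in WT members, a log2 ratio of 4.56 (3.74 to 5.51), and 4.42 (3.33 to 5.76) in the other Krt14 cells. Esr1, the estrogen receptor alpha, had 17.2 and 1.07 CPM, a ratio of 4.01 (3.19 to 4.93), and 4.00 (3.67 to 4.34) in the other cells. Both genes thus had nearly the same ratio outside the members. Nqo1, a quinone reductase, had 237 CPM in KO members and 32.9 CPM in WT members, a ratio of 2.85 (2.69 to 3.01), against 1.05 (0.89 to 1.20) in the other cells. Ly6g6c, a LY6 family gene, had 1064 and 158 CPM (2.75, 2.68 to 2.82), against 1.21 (1.11 to 1.30) in the other cells. Prss12, a serine protease known from neurons as neurotrypsin, had 48.9 and 8.08 CPM (2.60, 2.27 to 2.93), against 0.32 (0.07 to 0.57). For Nqo1, Ly6g6c and Prss12 the counting intervals in members and other cells lay apart, which compares these libraries only. These intervals leave out the spread between cells, and 1 KO member held 18.9% of the KO members' Nqo1 UMIs.

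Nqo1, Ly6g6c and Prss12 were higher in the KO library in every band. Nqo1 stood at 257, 197 and 272 CPM in the lower, middle and upper KO bands and at 13.8, 29.2 and 54.9 CPM in the WT bands. Ly6g6c stood at 1148, 880.0 and 1233 CPM in the KO bands and at 88.4, 149.8 and 235 CPM in the WT bands. Both genes were high in all KO bands and stepped up over the WT bands. Prss12 stood at 27.9, 42.9 and 79.0 CPM in the KO bands and at 6.28, 5.84 and 11.6 CPM in the WT bands. Of 14 target genes of the transcription factor NRF2, a list written after the value of Nqo1 was seen, only Nqo1 and Srxn1 (215 CPM in KO members, 60.0 CPM in WT members) were over 2-fold higher in KO members, Gsta4 was lower (23.0 and 69.6 CPM), and the median was −0.05. The trypsin-like genes Tmprss11b, Tmprss11d, Tmprss11e and Tmprss11f, 4 of 7 listed after values were seen and all of those with enough UMIs, were higher in KO members with log2 ratios of 1.17 to 2.57. Bpifc, of the family of bactericidal permeability-increasing proteins, had 59.6 and 8.38 CPM. Cox6b2, Siglecg, Adtrp and Col9a3 closed the 12 genes with log2 ratios of 1.99 to 2.08. F2rl2 overlaps Iqgap2 and Col9a3 overlaps Tcfl5, and whether counting used strand is not given in the sources used here.

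**Figure D5:**
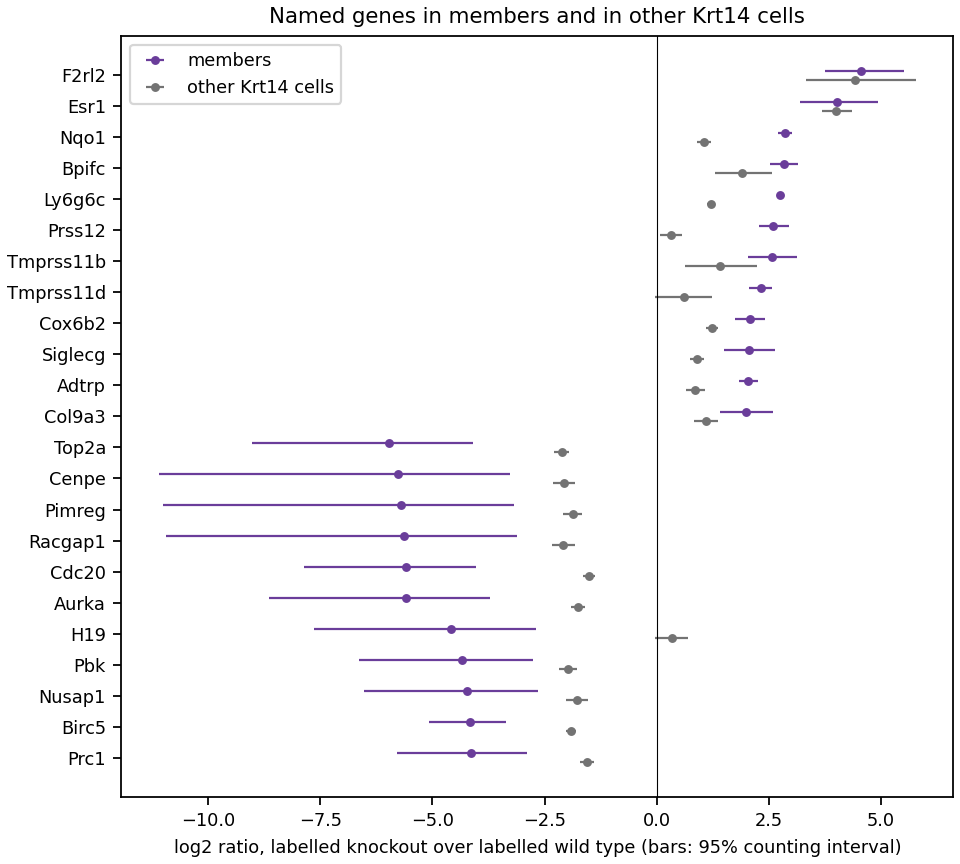
Log2 ratio of KO over WT (x axis) for 23 named genes, in members (purple) and in the other Krt14 cells (grey), with 95% counting intervals as bars. Esr1 and F2rl2 have nearly equal ratios in both groups of cells, while Nqo1, Ly6g6c and Prss12 are higher in members and the mitotic genes are further below 0 in members. Pclaf, with 0 UMIs in KO members, is not drawn.

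Left out by rule of the genes lowest in KO members were 31 with over 25% of the WT members' UMIs in 1 cell and 10 with 10 times the level in WT cells under the Krt14 limit. Of the 12 lowest that remained, 11 are genes of DNA replication or mitosis. Top2a, a topoisomerase, had 2 UMIs in KO members and 291 UMIs in WT members (0.354 and 22.2 CPM), a log2 ratio of −5.97 (−9.02 to −4.10), against −2.12 (−2.29 to −1.96) in the other cells. Cdc20, an activator of the anaphase-promoting complex, had 3 and 335 UMIs (−5.59, −7.87 to −4.03), against −1.51 (−1.64 to −1.39). Birc5, of the chromosomal passenger complex, had 13 and 538 UMIs (−4.16, −5.07 to −3.37), against −1.92 (−2.03 to −1.81). Pclaf, a clamp-associated factor of replication, had 0 and 208 UMIs, at least 29.8-fold lower against a floor of 3 UMIs in KO members. Cenpe, Pimreg, Racgap1, Aurka, Pbk, Nusap1 and Prc1 had 1 to 5 UMIs in KO members and 115 to 223 in WT members. Top2a, Pimreg, Cdc20, Aurka, Pclaf, Nusap1 and Prc1 overlap other annotated genes. The exception was H19, an imprinted RNA without a protein that hosts Mir675, with 2 UMIs in KO members and 111 in WT members (−4.58, −7.64 to −2.69) but 2.59 and 2.06 CPM in the other cells (0.33, −0.04 to 0.70).

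The difference in summed G2 and M phase genes was widest in the lower band. Of 36 G2 and M phase genes tested in members 19 were lower and 0 higher in the KO library, with a median log2 ratio of −1.35, beside −0.05 over all genes and −1.03 for the same genes in the other Krt14 cells. Ube2c, a ubiquitin-conjugating enzyme of mitosis, had 6.97, 10.5 and 5.47 CPM in the lower, middle and upper KO bands and 203, 68.4 and 7.79 CPM in the WT bands. Cdk1 had 4.06, 6.57 and 0.608 CPM in the KO bands and 110, 43.6 and 6.52 CPM in the WT bands. Both genes were low in the upper bands of both libraries, but the list summed to 991, 1105 and 1177 CPM in the lower, middle and upper KO bands and to 2098, 1298 and 901 CPM in the WT bands. The list's median was 0.33 in the upper band alone and 0.23 among members with a score gene at 500 CPM or more, settings chosen after seeing the data. The sign of the median turned there, but not that of every gene. In the upper band Ube2c and Cdk1 stayed lower in the KO library, while the list's sum was higher. Thinned to 8000 UMIs, Ube2c was found in 7.80% of KO members (3.96 to 13.5%) and 11.9% of WT members (8.60 to 16.03%), against 6.40% and 17.0% of the other Krt14 cells. Without thinning the shares were 26.2% and 33.6% of members. Myeloid-like cells had thinned Ube2c shares of 5% in the KO library and 22.2% in the WT library, and since such cells can divide, they give no background for this gene.

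Lists of cornification itself differed between the libraries in both directions. Of 13 Sprr genes tested in members only Sprr1a was higher and 6 were lower in the KO library, and the 6 between had log2 ratios of 0.13 to 0.81, such as Sprr2a3 at 1424 CPM in KO members and 1012 CPM in WT members. Sprr1a, and among the lower genes Sprr2d and Sprr2h, are score genes. They chose the members, so their ratios are only a description of the rule's own values. Of 15 cornified envelope proteins 6 were higher and 2 lower (median 0.59, beside −0.26 for the same genes in the other cells). The sum of the list went the other way, at 31539 CPM in KO members and 34126 CPM in WT members. Ivl had a ratio of 1.55 (1.48 to 1.61) against 0.30 (0.17 to 0.43) in the other cells, and 0.85 with the top 15% taken in each library. Scel, Sbsn, Dmkn, Cdsn and Krtdap were the other higher genes, at 1.52, 1.27, 1.15, 1.67 and 2.73, and a single member held 61.2% of the KO members' and 57.1% of the WT members' Krtdap UMIs. The lower ones were Cnfn, itself a score gene, and Prr9. Of 16 proteases and inhibitors 4 were higher (Klk10, Klk11, Serpinb1a and Cst6). A single KO member held most of the KO members' Cst6 UMIs, as given above, which limits that ratio. Of 10 antimicrobial genes 3 were higher (Defb14, Slpi and Bpifc) and 2 lower (S100a8 and Rnase4). The antimicrobial list's median of 0.37 was −0.34 with the top 15% taken in each library. The desmosomal cadherin genes Dsc2 and Dsc3 were both at a ratio of 1.02, against −0.08 and −0.04 in the other cells.

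Of 15 basal genes tested 5 were lower and 0 higher in KO members. Krt14, the most abundant of them, had a log2 ratio of 0.42, and the list summed to 18311 CPM in KO members and 14480 CPM in WT members. Col17a1, the hemidesmosomal collagen, had 2.48 CPM in KO members and 17.5 CPM in WT members (log2 −2.82), and Trp63 3.01 and 12.6 CPM (−2.07, −2.89 to −1.35), with −1.66 and −0.93 in the other cells. With cells thinned to 8000 UMIs before scoring the ratio of Trp63 in members was −0.85. Dst and Plec were also lower. The list's median was −0.35, and 0.42 in the upper band alone. Of 6 genes of the interleukin 1 family 3 were lower and 0 higher, and of 10 AP-1 factors Fos, Fosb and Atf3 were lower. Il1a, interleukin 1 alpha, had 121 CPM in KO members and 483 CPM in WT members, Il1rn, its receptor antagonist, 1.59 and 7.47 CPM, and Fos 25.1 and 90.5 CPM. Of the 23 transcription factors of differentiation only Ovol1 passed 2-fold, at 5.49 and 11.4 CPM (−1.05, −1.66 to −0.48). None of the 15 genes of the Bap1 complexes tested in members passed 2-fold, with a median of 0.05. Over all genes tested 1.55% were higher and 5.21% lower, so the counts for these 15 genes and the 23 transcription factors lie near that share.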

How the data were processed

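Single-cell RNA was captured with a 10x Genomics 3′ kit from about 6000 viable cells per library. The deposited tables hold raw UMI counts per gene and cell barcode, per the values of the files. Cell Ranger 2.1, Seurat 2.0 and the mm10 build are named, without their roles, per the submitters' processing notes. How reads were aligned and counted, whether by strand, and whether doublets were removed before deposit is not given in the sources used here. No doublet caller was run here, and all deposited barcodes were kept. Gene IDs were named from the RefSeq table of GRCm38, which matched 31049 of 36528 IDs; unmatched IDs held 2.67% of the UMIs. The number of table columns that match no sample was 0.

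From the counts deposited by the authors, CPM was computed per cell and from summed UMIs per group, with Python 3.11.15, numpy 2.4.6, scipy 1.17.1 and pandas 2.3.3. A gene was compared where it had at least 100 UMIs over the groups set against each other, and was called higher or lower from a 2-fold ratio. Intervals are 95% exact Poisson, conditional exact or Clopper-Pearson intervals and cover counting error only. The floor for a count of 0 was 3 UMIs per group. The scripts were tested on simulated data. Genes were named by rule: the 12 highest and 8 lowest by the smaller ratio of both libraries for members against other cells, and the 12 highest and 12 lowest for KO against WT members where no cell held over 25% of the UMIs of the library with the higher level. Score genes, sex chromosome genes and gene models with a number for a name were left out. Genes with 10 times the level in cells under the Krt14 limit were also left out, except among the 8 lowest in members. Some genes that these rules or the lists name are not reported here. A set of 23 genes was fixed by name, and genes of 36 lists were named as examples. The members and lists were chosen with earlier results of these data known, and the lists of NRF2 targets and Tmprss11 genes after their values were seen. The total per library was 64954113 UMIs (KO) and 77579465 UMIs (WT).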

Additional observations from a re-analysis of the deposited data

Results flagged for a closer look

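For 5 genes the KO over WT ratio was above 0 in members and below 0 in the other Krt14 cells. The log2 ratios in members and in other cells were 0.062 and −0.82 for Krt5, 0.42 and −0.20 for Krt14, 0.12 and −0.05 for Krt17, 0.43 and −0.03 for Krt6a and 0.50 and −0.64 for Tgm1. The difference between the groups of cells was not tested, as each genotype had 1 library. With the top 15% taken in each library the members' ratios were −0.26 for Krt5, −0.06 for Krt14, −0.0049 for Krt17, −0.09 for Krt6a and −0.05 for Tgm1. With cells thinned to 8000 UMIs before scoring they were −0.24, −0.03, −0.06, −0.06 and −0.03 in the same order of genes. Under both cuts all 5 ratios in members were below 0.

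Some cells under the Krt14 limit also scored at or over the cut. They were 8 of 400 cells in the KO library (2%, exact interval 0.867 to 3.90%) and 18 of 224 in the WT library (8.04%, 4.83 to 12.4%). Their median Krt14 level was 531 CPM in the KO library and 678 CPM in the WT library, their median depth 19489.5 and 14485.5 UMIs, and their median score 5.57 and 5.22. Of these cells 0 were myeloid-like. What they are was not tested.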

How the results depend on the processing

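No paired analysis was possible because each genotype had 1 library, and no library could be left out. The share of Krt14 cells called members was 7.21% in the KO library and 12.2% in the WT library with the top 10%, 12.6 and 25.9% with the top 20%, 15 and 14.98% with the cut made within each library, 6.84 and 21.5% with log2(CPM + 1), 13.5 and 16.1% after thinning to 8000 UMIs, and 6.10 and 22.1% without Sprr1a. Genes lower in members numbered 892 with the top 10%, 83 with the top 20%, 67 with log2(CPM + 1), 100 without Sprr1a, 583 and 204 with a minimum of 20 and 500 UMIs, 238 with centred ratios, and 1242 and 52 past 1.5-fold and 3-fold. With the top 5% alone they numbered 1254 and with members that had a score gene at 500 CPM 921. Genes higher in members numbered 507 and 181 with a minimum of 20 and 500 UMIs, and 668 and 179 past 1.5-fold and 3-fold. Genes higher in KO members numbered 346, 60, 438 and 49 in these 4 settings, and genes lower in KO members 1231, 124, 1186 and 207. Genes lower in KO members numbered 285 with the top 10%, 326 within each library, 843 with log2(CPM + 1), 321 after thinning, 205 with the top 5% and 253 with a score gene at 500 CPM. The settings with the top 5%, with a score gene at 500 CPM and without the highest-scoring member were chosen after seeing the data.

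Odam turned to higher in WT members over others at 1.02 (top 20%), 1.10 (log2(CPM + 1)), 1.38 (without Sprr1a), 1.71 (without Cnfn) and 1.60 (without Psca), from 6 UMIs in the members. Cnfn in KO over WT members was 0.0085 without Sprr1a. With the top 5%, Pimreg and Cenpe stood at 0 CPM in KO members and 1.26 CPM in WT members, so the KO level was still lower. Their ratio of 0.53 came from the floor of 3 UMIs set in place of the KO count of 0. The G2 and M phase median was 0.33 with the top 5% and 0.23 with a score gene at 500 CPM. The cause of the other turns was not tested. Of 2666 gene values 1705 stayed within the counting interval of the reported value, 953 moved out of it and 8, those above, turned in sign from a value past 2-fold. Among the 8, Pimreg and Cenpe turned through the floor alone. Sign changes of smaller values, such as those of Krt5, Krt14, Krt17, Krt6a and Tgm1, are counted by the interval alone. Of 621 list medians 591 stayed and 28 moved. A low count limits genes such as Dio3 and Cenpe, whose KO over WT ratios rest on 10 UMIs or fewer in KO members.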
